A study of Mus musculus with 40 samples.

Results

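The NMDA receptor subunit genes Grin1, Grin2a, Grin2b, Grin2c, Grin2d and Grin3a were followed through the brain transcriptomes of germ-free mice that received human stool. They were picked by symbol, as the named members of the family, and all 6 were found among the 47643 genes of the count tables. Of these, 5 had reads and were tested, and Grin2d had none. Stool came from 10 donors treated with the ketogenic diet (KD) for epilepsy, who each gave a sample before treatment (pre-KD) and a sample during it (post-KD), and each sample was given by fecal microbiota transplant (FMT) to its own cohort of mice. All recipients were wild-type Swiss Webster mice, an outbred stock, females of 6 to 8 weeks that had no microbiota before the transplant. They were all fed a standard control chow, so only the donors had the KD. RNA from hippocampus and from frontal cortex was collected on day 4. Each library was a pool of 6 mice, so the cohort was the replicate. Pooling averages differences between single mice but does not remove them from the spread between cohorts. This gave 20 cohorts and 40 libraries, and each region had 10 of either condition. None of the groups carried a transgene or received a drug, and there was no group without FMT.

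NMDA receptors are glutamate-gated cation channels that pass calcium when glutamate and a co-agonist, glycine or D-serine, are bound while the membrane is depolarized. Every receptor contains the obligatory GluN1 subunit, encoded by Grin1, together with glutamate-binding GluN2 subunits (Grin2a to Grin2d) or glycine-binding GluN3 subunits (Grin3a and Grin3b). In the adult forebrain GluN2A and GluN2B predominate, GluN2C is best known from cerebellar granule cells, and GluN2D from interneurons and the diencephalon. The receptors are central to synaptic plasticity and to glutamate-driven excitability, and the study asked whether the post-KD microbiota altered brain gene expression.

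Library totals lay between 1140756 and 1947416 counts in hippocampus and between 1188447 and 2095352 in frontal cortex. Of these, 8.63% to 18% of hippocampal and 9.79% to 18% of frontal cortical counts belonged to 1 gene, Gm42418. Levels are given as CPM (counts scaled to a fixed library total) after scaling by the trimmed mean of M values (TMM), with the SD over libraries. Markers of the regions went with their labels, in that 6 of 12 hippocampal neuron markers were higher in hippocampus after adjustment and 0 were lower, and 4 of 12 cortical neuron markers were lower in hippocampus and 1, Fezf2, was higher. Frontal cortex also contained striatal transcripts. The summed level of 8 striatum markers was 580 to 1285 CPM there against 57.4 to 342 CPM in hippocampus, while that of 8 choroid plexus markers was 469 to 4358 CPM in hippocampus against 1.57 to 602 CPM in frontal cortex. Although the mice were given as females, 24 libraries had reads of 4 Y-linked genes, 9 of them 10 or more, at up to 179 summed CPM, and 16 had none. Pools of bulk tissue were measured, so fewer cells of a type and less RNA per cell cannot be told apart.

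All 6 members are protein-coding genes on the minus strand of GRCm38, here placed by GENCODE M21. Grin1 (ENSMUSG00000026959) lies at chr2:25291181-25319187, Grin2a (ENSMUSG00000059003) at chr16:9567898-9995560 and Grin2b (ENSMUSG00000030209) at chr6:135713233-136173511. Grin2c (ENSMUSG00000020734) lies at chr11:115249169-115267243, Grin2d (ENSMUSG00000002771) at chr7:45831883-45878378 and Grin3a (ENSMUSG00000039579) at chr4:49661611-49845744. Their merged exons sum to 9.70 kb for Grin1, 17.9 kb for Grin2a, 24.8 kb for Grin2b, 5.04 kb for Grin2c, 6.66 kb for Grin2d and 12.3 kb for Grin3a. Of all transcript windows of 69 bp, the read length, 93.8% of Grin1, 88.8% of Grin2a, 99.6% of Grin2b, 99.5% of Grin2c, 93.3% of Grin2d and 100% of Grin3a were held by no other gene's annotated transcript on either strand, and 0 windows were shared between members. Grin1 shares 1307 exonic bases with its antisense gene Grin1os, which had 0 counts, and Grin2d shares 643 with the antisense gene Gm45441, which the tables do not list. Whether counting used the strand is not given in the sources used here. Reads over exons shared with an antisense partner may therefore have been counted for the member, for the partner or for neither. Of the partners in the tables whose exons overlap those of a member, Gm26653, antisense to Grin2b over 49 exonic bases, was the one with counts, 121 over the 40 libraries.

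Grin2b, which encodes GluN2B, gave the most reads of the family, with 47915 counts over 40 libraries and 719 to 1527 per library. Grin1 had 24454 counts, Grin2a 17434, Grin3a 3097 and Grin2c 1479. The order changed when the counts were divided by exonic length. On the CPM per kb scale Grin1 stood at 36.2 ± 7.03 in hippocampus and 41.7 ± 7.27 in frontal cortex (SD, n = 20 libraries each). Grin2b stood at 32.5 ± 4.40 and 27.8 ± 2.96 and Grin2a at 16.6 ± 3.35 and 13.6 ± 2.18. Grin2c, at 4.37 ± 3.88 and 5.03 ± 2.78, and Grin3a, at 4.17 ± 2.20 and 3.64 ± 1.46, lay within each other's spread.

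**Figure D1:**
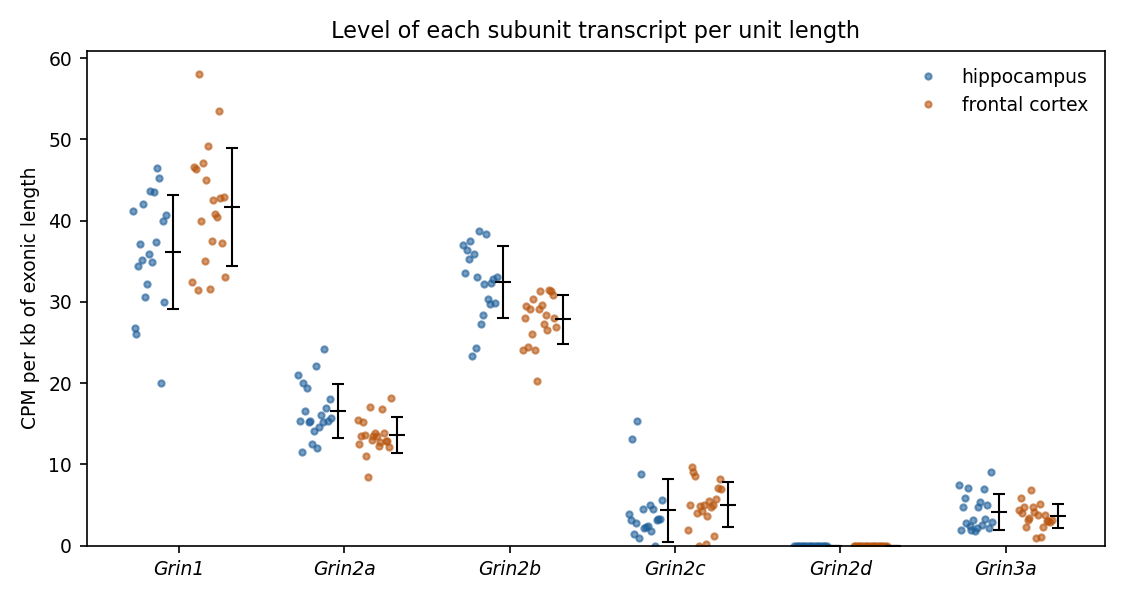
CPM per kb of exonic length (y axis) of the 6 subunit genes (x axis) in 20 hippocampal (blue) and 20 frontal cortical (orange) libraries, with the mean and SD in black. Grin1 and Grin2b lie above Grin2a, Grin2c and Grin3a lie together near the bottom at means of 3.64 to 5.03, and all Grin2d points are at 0.

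Grin1 was the highest member per kb in 20 of 20 frontal cortical libraries. In hippocampus Grin1 was first in 12 libraries and Grin2b in 8, so the 2 genes did not separate there. Grin2a took the next place in all 20 frontal cortical libraries and in 19 of 20 hippocampal libraries. The places of Grin2c and Grin3a changed from library to library, with Grin3a in place 4 in 11 hippocampal and 8 frontal cortical libraries. As a share of the summed CPM per kb of the members, Grin1 made up 38.3% ± 5.36 in hippocampus and 45.2% ± 4.74 in frontal cortex, Grin2b 34.9% ± 5.18 and 30.4% ± 3.53, and Grin2a 17.7% ± 3.08 and 15% ± 2.98. The summed level itself was 93.7 ± 8.64 CPM per kb in hippocampus and 91.8 ± 8.49 in frontal cortex. These levels assume reads from the whole transcript, and the study's own methods text and its list of kits name different library preparations, one of which reads 3' ends only.

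No read of Grin2d, the gene of GluN2D, was counted in any of the 40 libraries. A count of 0 allows up to 3 counts, which is 0.0972 CPM over the hippocampal libraries together and 0.0895 CPM over the frontal cortical ones. In a single library the limit was between 1.5 and 2.83 CPM, and these limits cover counting error only. Of 21620 protein-coding genes, 5155 (23.8%) were likewise at 0 in all 40 libraries. Grin2d has the highest GC content of the members, 65.0% of the bases of its longest transcript, against 44.8% for Grin2a, 45.7% for Grin2b, 49.2% for Grin3a, 59.4% for Grin1 and 62.1% for Grin2c. Among the 125 protein-coding genes with a GC content at least as high, 49 (39.2%) were at 0 in all libraries. Over all protein-coding genes, however, those at 0 had a lower median GC content, 44.1%, than those with counts, 49.8%, and the part of GC content in the absence of Grin2d reads was not tested. Grin3b, the remaining subunit gene of the family and no member here, had 7 counts, 6 of them in 1 pre-KD and 1 in 1 post-KD frontal cortical library, and was not tested. It shares 1059 exonic bases with Tmem259, a gene on the opposite strand with 2881 counts, and 79.9% of its windows were unique. With the strand setting not known, reads of Grin3b may have been lost to this overlap, which was not tested.

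In hippocampus, 0 of the 5 tested members passed for post-KD against pre-KD recipients. By edgeR's quasi-likelihood test with Benjamini-Hochberg adjustment over 17529 genes, 0 of 5 had an adjusted p under 0.05 and 0 of 5 an unadjusted p under 0.05. Of all tested genes, 0.00570% passed the adjusted and 10.1% the unadjusted threshold, and of those averaging at least 50 counts per library 3.18% passed the unadjusted one. DESeq2, limma-voom and the other alternatives also called 0 members. The members' median log2 fold change was -0.09, and that of all genes -0.01.

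Grin1, the obligatory subunit, ranged from 194 CPM through a median of 391 to 451 CPM in the pre-KD and from 253 through 337 to 407 CPM in the post-KD hippocampus. The groups overlapped over most of their range, and the lowest value of all belonged to a pre-KD cohort. The means were 370 ± 79.0 and 331 ± 52.2 CPM, the log2 fold change was -0.17 ± 0.14 (SE, 95% confidence interval -0.45 to 0.12, adjusted p = 0.970), and Grin1 was lower post-KD in 8 of 10 donors. With each donor left out the log2 fold change lay between -0.27, without donor 7, and -0.11, without donor 3. Grin2a, for GluN2A, ranged from 215 through 285 to 434 CPM pre-KD and from 207 through 275 to 376 CPM post-KD. Grin2b ranged from 679 through 777 to 953 CPM pre-KD and from 579 through 884 to 961 CPM post-KD. For both genes the groups overlapped, with log2 fold changes of -0.09 ± 0.15 for Grin2a and 0.08 ± 0.11 for Grin2b (SE). The 95% confidence intervals, -0.39 to 0.21 for Grin2a and -0.14 to 0.31 for Grin2b, limit how large a difference these libraries allow. With each donor left out Grin2a lay between -0.14, without donor 4, and -0.05, without donor 9, and Grin2b between 0.05, without donor 1, and 0.14, without donor 8.

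Grin2c, for GluN2C, varied most. Its hippocampal level was 0 to 28.6 CPM with a median of 16.3 pre-KD and 4.84 to 77.3 CPM with a median of 17.7 post-KD. The medians were close, and 3 post-KD cohorts, from donors 6, 3 and 8, stood above every pre-KD cohort at 77.3, 65.9 and 44.6 CPM. The log2 fold change was 0.82 ± 0.56 (SE, 95% confidence interval -0.29 to 1.93, adjusted p = 0.843), and 6 of 10 donors were higher post-KD. Without donor 6 it was 0.37, and with the donor as a block 0.41. Gabra6, a marker of cerebellar granule cells and one of the 7 on that list, had 47 of its 49 counts in the post-KD hippocampus of donor 8 and 0 in those of donors 3 and 6. Cbln3, of the same list, had 0 counts in all 3 of these libraries. Over the whole list, 5 genes were tested in hippocampus, of which Gabra6 had an unadjusted p under 0.05 in edgeR and 0 passed after adjustment, and the summed level was 31.5 to 170 CPM pre-KD and 22.5 to 200 CPM post-KD. The part of granule cell transcripts in the Grin2c level of donor 8 was not tested. Grin3a, whose GluN3A subunit lowers calcium flow through the receptor, was 26.7 to 112 CPM (median 49.0) pre-KD and 21.9 to 91.0 CPM (median 37.0) post-KD, with a log2 fold change of -0.19 ± 0.33 (SE). With each donor left out it lay between -0.41, without donor 1, and 0.0178, without donor 9.

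**Figure D2:**
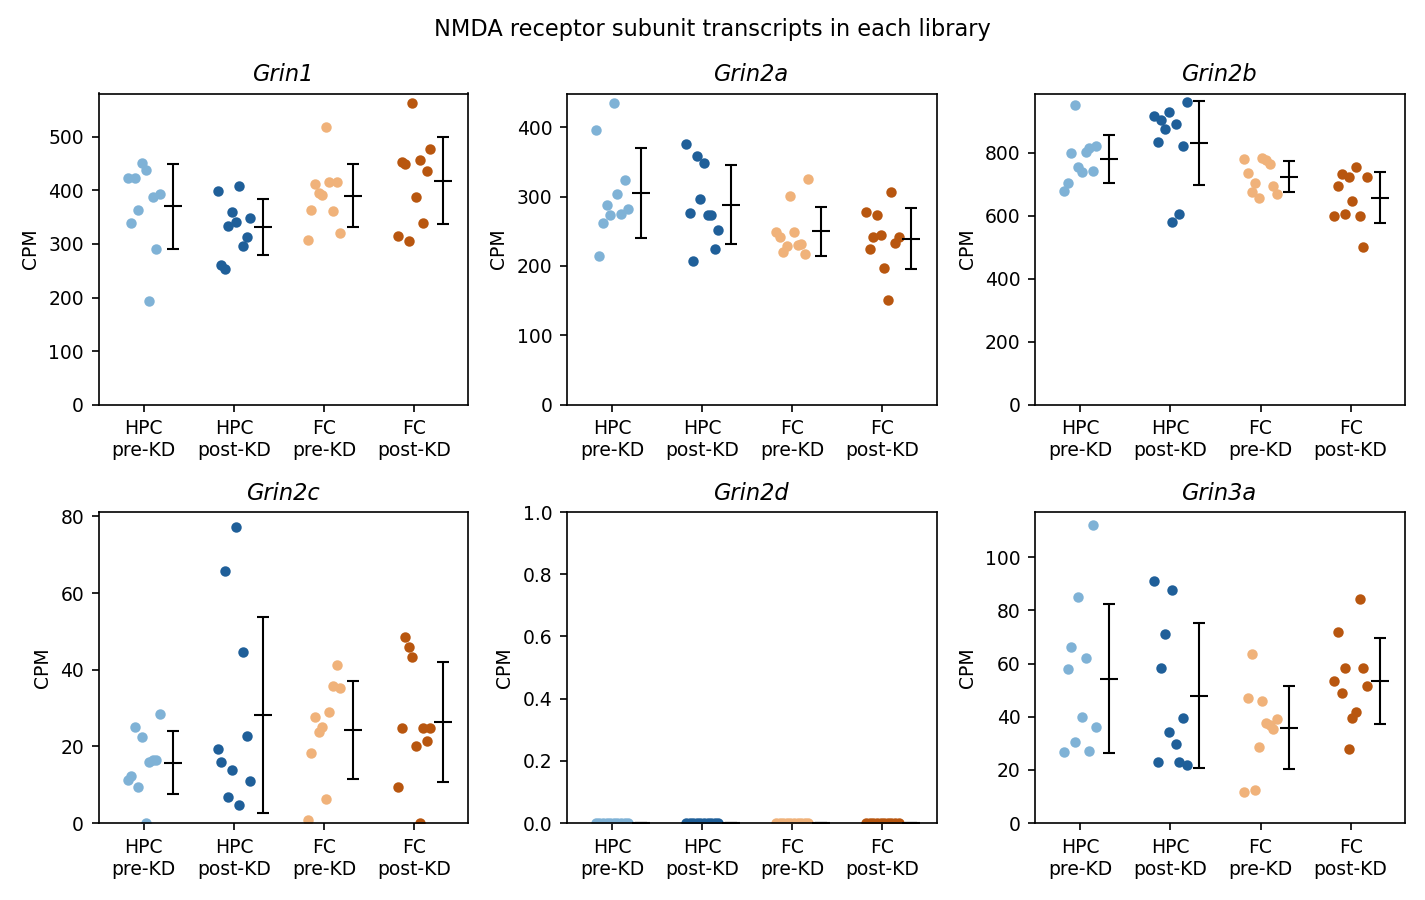
CPM (y axis, from 0, a separate scale per gene) of each member in the 10 libraries of each group, for hippocampus (HPC) and frontal cortex (FC), with points in the order of the donors and the group mean and SD in black. Groups overlap for every member with reads, Grin2c reaches 77.3 CPM in the post-KD hippocampus, and Grin2d is at 0 throughout.

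In frontal cortex, Grin3a was the 1 member of 5 with an unadjusted p under 0.05 in edgeR, and 0 of 5 passed after adjustment over 17873 genes. Of all genes tested there, 9.68% had an unadjusted p under 0.05 and 0.00560% passed after adjustment, and of those averaging at least 50 counts per library 5.87% had such a p. DESeq2 gave 1 member an unadjusted p under 0.05 and limma-voom 2, the additional one being Grin2b. Grin3a was 11.7 to 63.7 CPM with a median of 37.2 in pre-KD cohorts and 28.0 to 84.4 CPM with a median of 52.4 in post-KD cohorts. The 2 lowest pre-KD cohorts, of donors 1 and 4, were at 11.7 and 12.4 CPM, below all others, while the rest of the groups overlapped. The means were 35.9 ± 15.6 and 53.6 ± 16.2 CPM, a log2 fold change of 0.57 ± 0.26 (SE, 95% confidence interval 0.05 to 1.09), with edgeR's unadjusted p = 0.0317 and adjusted p = 0.407, and 7 of 10 donors were higher post-KD. Without donor 1, 2, 4 or 8 the unadjusted p rose above 0.05, to 0.0712, 0.0514, 0.0976 and 0.0970. Over all alternatives Grin3a's adjusted p lay between 0.209 and 1.0. In the same comparison the hemoglobin genes Hba-a1 and Hbb-bs of the blood list had log2 fold changes of 0.49 and 0.41 and the striatal gene Penk of 0.28, each with an unadjusted p under 0.05 and none after adjustment. By list, 2 of 4 blood and 2 of 7 striatum markers had such a p with higher levels, as did 1 of 12 cortical neuron, 1 of 4 cerebellar granule and 1 of 9 microglia markers, while 1 of 5 glutamatergic and 1 of 9 microglia markers had one with lower levels. The summed striatum markers were 580 to 1220 CPM pre-KD and 826 to 1285 CPM post-KD, and the summed blood markers 390 to 1156 and 548 to 1390 CPM. Their part in the Grin3a value was not tested.

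The remaining members had smaller fold changes in frontal cortex. Grin1 was 307 to 519 CPM (median 394) pre-KD and 305 to 563 CPM (median 443) post-KD, with a log2 fold change of 0.10 ± 0.11 (SE). Grin2a was 218 to 326 CPM (median 237) pre-KD and 151 to 307 CPM (median 242) post-KD, with a log2 fold change of -0.07 ± 0.12. With each donor left out Grin1 lay between 0.04, without donor 5, and 0.16, without donor 6, and Grin2a between -0.13, without donor 8, and -0.02, without donor 10. Grin2b was 658 to 783 CPM (median 721) pre-KD and 502 to 754 CPM (median 672) post-KD. Its log2 fold change of -0.14 ± 0.09 (SE, 95% confidence interval -0.32 to 0.04) had an adjusted p of 0.768 in edgeR. Its unadjusted p was 0.125 in edgeR and 0.0263 in limma-voom, where the adjusted p was 0.786. Grin2c, at 0.781 to 41.3 CPM pre-KD and 0 to 48.5 CPM post-KD, had a log2 fold change of 0.12 ± 0.41 (SE). It was -0.12 in limma-voom, and with each donor left out it lay between -0.0199, without donor 4, and 0.29, without donor 7. All of these groups overlapped, and the members' median log2 fold change was 0.10 against 0.01 for all genes.

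**Figure D3:**
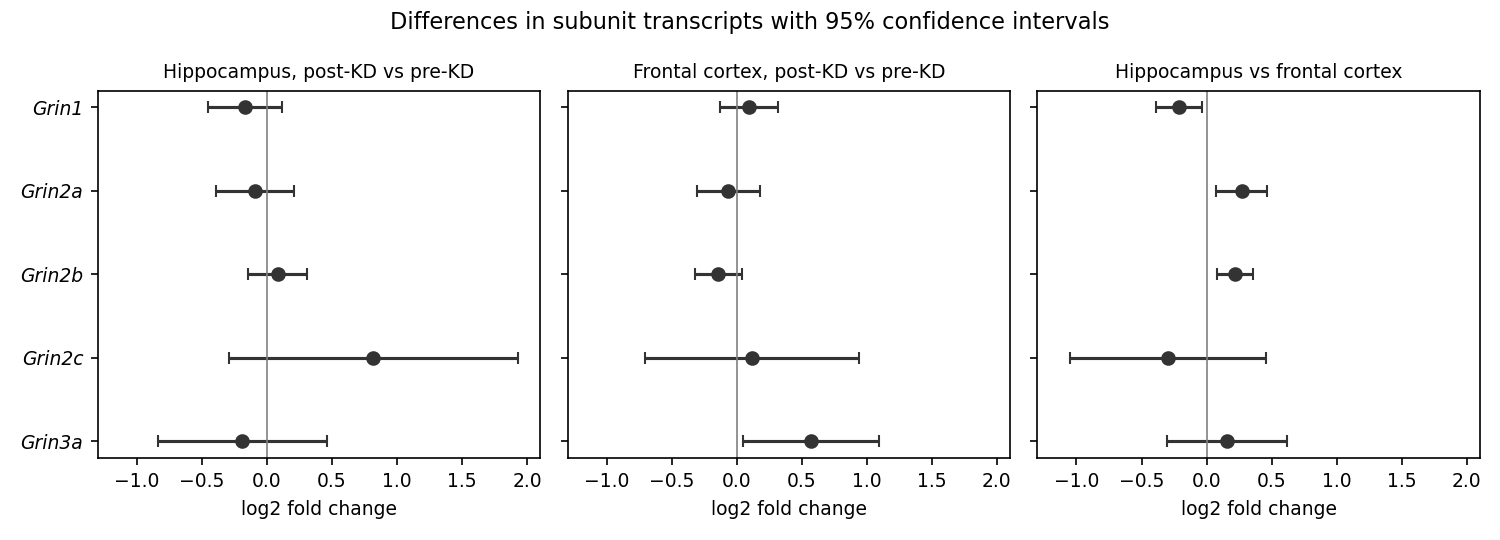
Log2 fold change (x axis, edgeR) of the 5 tested members with its 95% confidence interval (bars) for post-KD against pre-KD in each region (n = 10 against 10 libraries) and for hippocampus against frontal cortex (n = 20 cohorts). Intervals are narrow for Grin1, Grin2a and Grin2b and widest for Grin2c, and those that leave out 0 belong to Grin3a in frontal cortex and to Grin1, Grin2a and Grin2b between regions.

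Whether the post-KD change differed between the regions was tested over all 40 libraries with a term for each cohort. The difference, hippocampal change minus frontal cortical change, was largest in size for Grin3a, at -0.88 ± 0.47 on the log2 scale (SE, 95% confidence interval -1.81 to 0.04, edgeR, unadjusted p = 0.0612, adjusted p = 1.0). For Grin2b it was 0.22 ± 0.14 (unadjusted p = 0.104 in edgeR) and for Grin1 -0.23 ± 0.18 (unadjusted p = 0.187 in edgeR). For Grin2c it was 0.75 ± 0.76 (unadjusted p = 0.324 in edgeR), falling to 0.27 without donor 6 and 0.45 without donor 7, and for Grin2a -0.01 ± 0.20 (unadjusted p = 0.974 in edgeR). In edgeR 0 of 5 members passed before or after adjustment, where 2.22% and 0.0154% of all genes did. DESeq2 gave 2 members an unadjusted p under 0.05, Grin3a with 0.0298 and Grin2b with 0.0428, and 0 after adjustment. In the same edgeR test 4 of 7 striatum, 2 of 4 blood and 1 of 12 cortical neuron markers had an unadjusted p under 0.05. Their differences were negative, as Grin3a's is. Of 6 oligodendrocyte precursor markers 1 had such a p, with a positive difference, and 0 of all these passed after adjustment. The list medians were -0.77 for striatum, -0.16 for blood, -0.01 for cortical neuron and -0.82 for oligodendrocyte precursor markers, against -0.07 for all genes. The part of these cell types in the members' values was not tested. With each donor left out, edgeR's unadjusted p for Grin3a lay between 0.0199 and 0.143, with 0.0199 without donor 6 and 0.0479 without donor 3 as the values under 0.05. For Grin1 it lay between 0.0448, without donor 7, and 0.382.

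Between regions, 3 of 5 members had an unadjusted p under 0.05 in edgeR, Grin2a and Grin2b with higher and Grin1 with lower levels in hippocampus, and 0 passed after adjustment over 19422 genes. Of all genes 10.9% had such a p and 2.85% passed after adjustment, 0.870% as higher and 1.98% as lower in hippocampus. Among the 4821 genes averaging at least 50 counts per library, as Grin1, Grin2a, Grin2b and Grin3a did, the shares were 22.7% and 8.53%.

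Grin2b was 579 to 961 CPM in hippocampus and 502 to 783 CPM in frontal cortex, at means of 807 ± 109 and 691 ± 73.6 CPM. Hippocampus was higher in 16 of 20 cohorts, 7 of 10 pre-KD and 9 of 10 post-KD, with a log2 fold change of 0.22 ± 0.07 (SE, 95% confidence interval 0.08 to 0.35, edgeR, unadjusted p = 0.00179, adjusted p = 0.0600). This adjusted p lay just above the threshold, and it fell below it under 4 of 6 alternatives in tool, filter, scaling and pairing, with 0.000787 in DESeq2, 0.0125 with RLE size factors, 0.0173 with total counts and 0.0224 without the cohort terms. With each donor left out in turn it lay between 0.0296 and 0.236, below the threshold without donor 6 and above it in the other fits. Grin2a, at means of 297 ± 60.1 and 245 ± 39.2 CPM, was higher in hippocampus in 14 of 20 cohorts, with a log2 fold change of 0.27 ± 0.10 (SE, 95% confidence interval 0.08 to 0.47, edgeR, adjusted p = 0.154). It passed in DESeq2, with an adjusted p of 0.00738, and without the cohort terms, with 0.0393.

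Grin1 was 351 ± 68.2 CPM in hippocampus and 404 ± 70.5 CPM in frontal cortex, lower in hippocampus in 13 of 20 cohorts, with a log2 fold change of -0.21 ± 0.09 (SE, 95% confidence interval -0.39 to -0.04, edgeR, unadjusted p = 0.0165, adjusted p = 0.272). Among the pre-KD cohorts 5 of 10 were lower in hippocampus and among the post-KD cohorts 8 of 10. Grin2c and Grin3a differed by less than their spread, at log2 fold changes of -0.30 ± 0.38 and 0.16 ± 0.24 (SE). With each donor left out they lay between -0.52, without donor 1, and -0.10, without donor 4, for Grin2c and between 0.06, without donor 1, and 0.30, without donor 8, for Grin3a. The striatal and choroid plexus transcripts described above moved with the same contrast, as did 3 of 10 interneuron markers, Npy, Gad2 and Gad1, which were lower in hippocampus after adjustment. After adjustment 1 of 5 glutamatergic neuron markers was higher and 1 lower, 1 of 8 thalamus markers was lower, 1 of 5 cerebellar granule markers was higher, and 0 of 10 astrocyte, 0 of 8 oligodendrocyte, 0 of 6 oligodendrocyte precursor, 0 of 9 microglia and 0 of 4 blood markers passed, although 3 of the 4 blood markers were lower at an unadjusted p under 0.05. The part of tissue composition in the members' regional values was not tested.

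**Figure D4:**
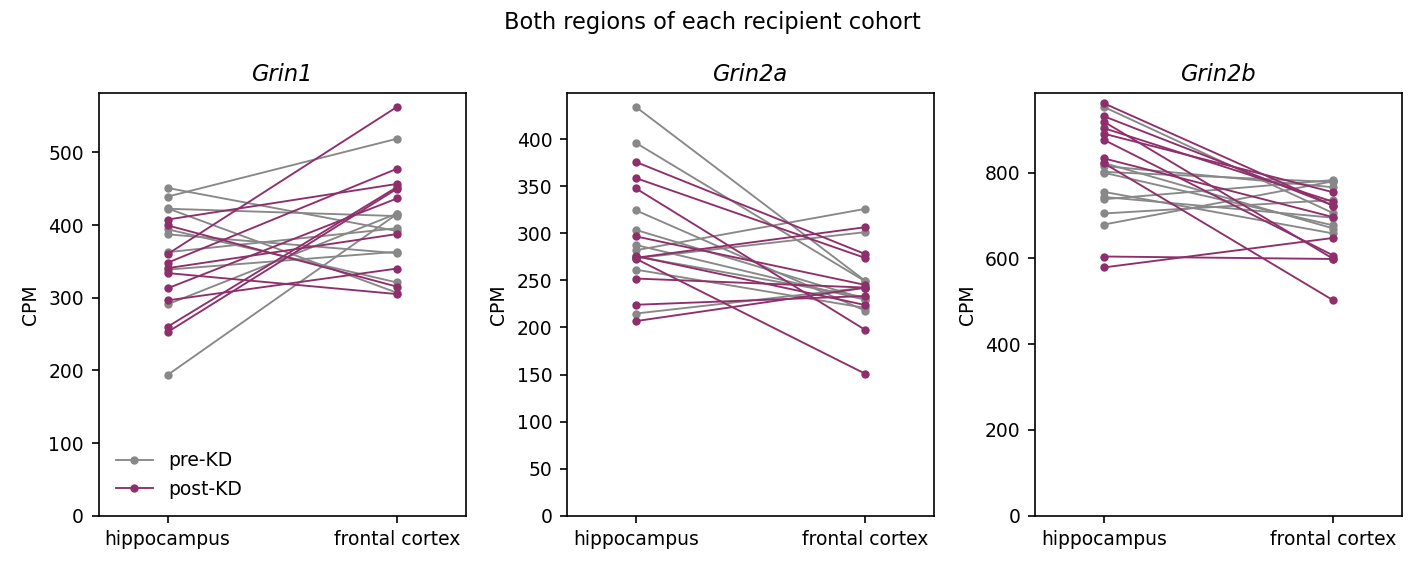
CPM (y axis, from 0) of Grin1, Grin2a and Grin2b in hippocampus and frontal cortex, with a line joining the libraries of a cohort (grey for 10 pre-KD, purple for 10 post-KD). Lines fall from hippocampus to frontal cortex in 14 cohorts for Grin2a and 16 for Grin2b and rise in 13 for Grin1.

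A ratio of genes within a library does not depend on how libraries are scaled. Counts of Grin1 were 0.443 ± 0.108 of those of Grin2b in hippocampus (range 0.241 to 0.623) and 0.589 ± 0.107 in frontal cortex (range 0.393 to 0.870). The ratio was lower in hippocampus in 16 of 20 cohorts. By condition, it was 0.479 ± 0.118 in hippocampus and 0.540 ± 0.0808 in frontal cortex pre-KD, and 0.407 ± 0.0896 and 0.637 ± 0.112 post-KD. It was chosen after the values of both genes had been seen and is given without a test. Per kb, the summed GluN2 transcripts (Grin2a, Grin2b and Grin2c) were 1.54 ± 0.392 times Grin1 in hippocampus and 1.15 ± 0.226 times in frontal cortex, likewise a description. By condition this was 1.43 ± 0.457 and 1.22 ± 0.201 pre-KD and 1.65 ± 0.298 and 1.08 ± 0.238 post-KD, and whether the gap differed between conditions was not tested for either ratio.

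The Grin2a to Grin2b ratio is of interest because GluN2A replaces much of GluN2B as forebrain synapses mature. On the log2 scale of counts it was -1.38 ± 0.35 in pre-KD and -1.53 ± 0.42 in post-KD hippocampus, while frontal cortex had -1.54 ± 0.25 with pre-KD and -1.47 ± 0.40 with post-KD stool (SD over 10 libraries). Post-KD minus pre-KD was -0.16 in hippocampus (permutation test, two-sided, p = 0.377, adjusted p = 0.632 over 3 comparisons) and 0.07 in frontal cortex (permutation test, p = 0.611, adjusted p = 0.632). With each donor left out the hippocampal value lay between -0.22, without donor 4, and -0.10, without donor 9. The frontal cortical value lay between -0.00357, without donor 8, and 0.14, without donor 7. Between regions the difference was 0.05 (permutation test with signs flipped within cohorts, p = 0.632), with hippocampus higher in 9 of 20 cohorts. It turned to -0.0439 without donor 6 and reached 0.11 without donor 10. Per kb, Grin2a reached 0.523 ± 0.150 of the Grin2b level in hippocampus and 0.499 ± 0.113 in frontal cortex.

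The spread between cohorts is set beside what counting alone would give, with no technical replicate to separate library preparation from differences between pools. In Grin2b the coefficient of variation was 6.84% to 16.1% in the 4 groups, where counting alone would give 2.82% to 2.96%. In Grin1 it was 15.2% to 21.3% against 3.73% to 4.52%, and in Grin2a 14.3% to 21.3% against 4.51% to 4.96%. Grin3a varied by 30.1% to 56.4% against 10.3% to 13%, and Grin2c by 52.4% to 90.2% against 14.9% to 20%. Grin2c was at 0 in the pre-KD hippocampus of donor 6 and in the post-KD frontal cortex of donor 7.

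Correlations between members were low. Over the 40 libraries, with region means removed, Pearson's r between pairs of members lay between -0.27 for Grin2b with Grin3a and 0.26 for Grin2c with Grin3a. Between the 2 regions of a cohort r was -0.14 for Grin1, 0.08 for Grin2a, 0.07 for Grin2b, 0.07 for Grin3a and 0.44 for Grin2c over 20 cohorts. The genes most like Grin1 across libraries, of 4452 compared, were Tmem259, Pcsk1n and Rex1bd, at r of 0.65, 0.64 and 0.62. Those most like Grin2b were Pacsin1, Strbp and Cnot1, at 0.65, 0.59 and 0.59, and those most like Grin2a were Lonp2, Mif and Slc8a2, at 0.57, 0.57 and 0.55. Grin2c was nearest to Gm42970, Pkd2 and Ipo9, at 0.64, 0.62 and 0.62, and Grin3a to Wbp2, Scn2b and Pld3, at 0.55, 0.54 and 0.49. These correlations are descriptions over libraries that share the same scaling, and the highest 1% of all genes reached r of 0.37 to 0.47 with the members.

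Genes that work with the receptor were taken from 4 lists of co-agonist supply, scaffolds, kinases with calcium effectors, and trafficking. Post-KD against pre-KD, 0 of 10 co-agonist, 0 of 18 scaffold, 0 of 25 kinase and effector and 0 of 14 trafficking genes passed the adjusted threshold in edgeR in either region. At an unadjusted p under 0.05, where all genes gave 10.1% in hippocampus and 9.68% in frontal cortex, there was 1 gene in hippocampus, Phgdh, which makes the precursor of serine, at means of 0.18 and 2.08 CPM. In frontal cortex there were 2, the calcium/calmodulin kinase gene Camk2a, with a log2 fold change of -0.20 ± 0.07 (SE), and the calmodulin gene Calm3, with -0.22 ± 0.09.

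Between regions, genes of 3 of the 4 lists passed, in both directions, where 2.85% of all genes and 8.53% of those averaging at least 50 counts did. Of 18 scaffold genes, 2 were higher in hippocampus after adjustment in edgeR, Homer2 and Dlgap1, and 2 were lower, Homer1 and Dlgap3. Homer1, which links the postsynaptic density to metabotropic receptors, was 119 CPM in hippocampus and 190 CPM in frontal cortex, and Dlgap1, a partner of PSD-95, was 1049 and 896 CPM. Of 25 kinase and effector genes 3 were higher and 3 lower. Nos1, the neuronal nitric oxide synthase bound to the receptor complex, was 59.0 CPM in hippocampus and 32.7 CPM in frontal cortex. Ptpn5, the phosphatase STEP that acts on GluN2B, went the other way at 72.7 and 146 CPM, and it is also strongly expressed in striatum. Of 14 trafficking genes 1 was higher, Nsf, and 1 lower, Lin7a, and 0 of 10 co-agonist genes passed. The medians of the lists between regions were -0.20 for co-agonist, -0.08 for scaffold, -0.01 for kinase and effector and -0.05 for trafficking genes, against -0.17 for all genes and 0.16 for the members.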

How the data were processed

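According to the methods, the authors trimmed paired reads of 69 bp, aligned them to mm10 with STAR 2.5.2a and counted them with HTSeq 0.6.0. They deposited raw counts, 1 table per region of 47643 Ensembl genes in 20 libraries. The annotation release and the strand setting of the counting are not given in the sources used here. Of the identifiers, 47224 matched GENCODE M21, used for names, positions and lengths. Groups and donors were taken from the labels.

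Genes with at least 10 counts summed over a comparison's libraries were tested with edgeR 4.0.16 (quasi-likelihood, TMM; R 4.3.3), with p adjusted over all genes tested. Comparisons of post-KD with pre-KD recipients had no donor block, and the regional and interaction tests had a term for each cohort. CPM were scaled over all 40 libraries together, while each test used its own scaling. The donor links 2 cohorts by design, but values did not follow it: the correlation of deviations within a donor was -0.0278 to 0.0310 in hippocampus and -0.0551 to 0.0311 in frontal cortex. The Grin2a to Grin2b ratio was tested on log2 counts plus 0.5 by permutation (100000 resamples, scipy 1.17.1). No 2 libraries held identical values.

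Alternatives were DESeq2 1.42.0, limma-voom 3.58.1 with quality weights, no filter, filterByExpr, RLE size factors, total counts, the block, a Y-linked covariate, and each donor left out. On simulated data edgeR called 43 of 61 changed genes of at least 50 counts in hippocampus, 63 of 73 in frontal cortex, 59 of 69 between regions and 19 of 57 for the interaction. Unchanged genes had an unadjusted p under 0.05 in 8.34%, 7.13%, 3.59% and 2.93% of cases. The share called at fold changes as small as those of Grin1, Grin2a and Grin2b was not tested. All members with reads were named in every comparison. From each list the counts and up to 3 passing genes per direction were named, and for likeness the 3 genes of highest r among those averaging at least 50 counts. Members and lists were chosen with earlier results of these data known, and the Grin1 to Grin2b ratio and Gabra6 after their values were seen.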

Additional observations from a re-analysis of the deposited data

Results flagged for a closer look

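In groups of 10 libraries a single value was sought that stood far from its neighbours relative to the group's range, over 24 groups of member levels and ratios. Chance marks about 1 in 20 such groups. Grin1 stood apart in the pre-KD frontal cortex of donor 6, at 519 CPM in a group with a median of 394 CPM. Grin2b stood apart in the pre-KD hippocampus of donor 4, at 953 CPM in a group with a median of 777 CPM.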

How the results depend on the processing

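In both comparisons of post-KD with pre-KD recipients and in the interaction, 0 members were called under any alternative run. Between regions, where 0 were called, DESeq2 called 2 members, the fit with no replicate block 2, RLE size factors 1 and total counts 1, and 0 to 1 with each donor left out. Grin2c in frontal cortex went to -0.12 in limma-voom and spanned -0.0199 to 0.29 with each donor left out, where it was -0.00287 without donor 3. Grin2a's interaction went to 0.0200 with total counts and spanned -0.0661 to 0.0516, with 0.0163, 0.0419, 0.0346 and 0.0516 without donors 1, 3, 8 and 9. Grin3a in hippocampus spanned -0.41 to 0.0178. The Grin2a to Grin2b ratio spanned -0.00357 to 0.14 in frontal cortex and -0.0439 to 0.11 between regions. The causes were not tested. With the donor as a replicate block, edgeR called 0 members in each region and gave Grin3a in frontal cortex a log2 fold change of 0.65 (unadjusted p = 0.0234, adjusted p = 1.0), so the pairing changed no call there. Over all genes the block took edgeR's unadjusted p under 0.05 from 1762 to 348 in hippocampus and from 1731 to 548 in frontal cortex, but DESeq2's from 599 to 931 and from 825 to 1096. After adjustment, no filter gave 1291 genes in hippocampus against 1, and between regions DESeq2 gave 1033 and no block 2101 against 554. Grin2c had the fewest counts of the tested members, and Grin2d and Grin3b had too few to be tested.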
